A study of Mus musculus with 36 samples.

Results

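The 9 genes described here are Ddc, Chga, Chgb, Calca, Syp, Insm1, Uchl1, Dnm1 and Adora1, a set named for neuroendocrine cells and amine synthesis. They were found as the rows of the deposited count table whose Ensembl ID maps to these symbols, 9 of 49585 gene IDs. The set was chosen by measured values as well as by function, since results from these tumours were known when it was drawn up, so the levels of the members are given as a description. Libraries came from 36 mouse lung tumours, each from neoplastic cells sorted for EGFP, and the 4 groups held 9 tumours each. Tumours were driven by EML4-ALK variant 1 or variant 3, forms of a fusion oncogene of the receptor tyrosine kinase ALK, and carried either the guide sgNeo, which leaves the histone methyltransferase Setd2 intact, or sgSetd2, which makes the tumour Setd2-deficient. The groups are called Variant 1 sgNeo, Variant 1 sgSetd2, Variant 3 sgNeo and Variant 3 sgSetd2. All 36 therefore share an EML4-ALK driver and the EGFP sort. The labels give no strain, age or vector. Titles carry 12 codes with 3 tumours each and 3 codes per group. Nothing in the labels explains these codes.

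Pulmonary neuroendocrine cells are rare airway cells that store peptides and amines in dense-core vesicles. Chromogranins A and B (Chga, Chgb) fill these vesicles, synaptophysin (Syp) sits in the membrane of small synaptic-like vesicles, and Calca encodes calcitonin and the neuropeptide CGRP. Insm1 is a zinc-finger factor of neuroendocrine differentiation, and Uchl1 is a ubiquitin hydrolase abundant in neurons and neuroendocrine cells. Ddc encodes aromatic L-amino acid decarboxylase, which makes dopamine from L-DOPA and serotonin from 5-hydroxytryptophan and is found outside neuroendocrine cells too, for example in kidney tubules. Dnm1 encodes dynamin 1, the GTPase that pinches off clathrin-coated vesicles in neurons, and Adora1 encodes the adenosine A1 receptor, which lowers cyclic AMP through inhibitory G proteins.

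Levels are CPM, read counts scaled to a common library size, after TMM normalisation. Total counts per tumour ran from 17893071 to 137152480, with a median of 40651118. Setd2 itself averaged 67.7 ± 12.8 CPM (SD, n = 3 codes) in Variant 1 sgNeo and 37.4 ± 2.52 in Variant 1 sgSetd2, against 54.6 ± 10.3 in Variant 3 sgNeo and 45.7 ± 13.2 in Variant 3 sgSetd2. The Setd2 ranges of the Variant 3 codes overlapped, so the labels are used for these groups as given. Markers of alveolar type 2 cells summed to medians of 134000 to 162000 CPM in the 4 groups. Other marker lists differed with the guide. Median sums for sgNeo and sgSetd2 were 2.18 and 21.2 CPM in Variant 1 and 0.937 and 32.9 in Variant 3 for 5 neutrophil markers, 82.5 and 406 and then 31.2 and 126 for 6 club cell markers, and 86.9 and 22.8 and then 75.7 and 15.7 for 4 platelet markers. For 5 fibroblast markers they were 5.52 and 23.3 and then 9 and 43. For 6 ciliated cell markers they were 13.6 and 39 and then 12 and 14.3. Tumours of the guides overlapped in both of these lists. The neutrophil sum was nearly all Retnlg, with Csf3r at 0 counts in 35 of 36 tumours and S100a9 in 34, and the platelet sum nearly all Pf4, with Gp9 at 0 in 32 and Ppbp in 29. The part of these marker lists in the members' results was not tested. Tumour 1 of CE467, in Variant 1 sgNeo, stood apart from the other tumours of its code, with alveolar type 2 markers at 29400 CPM and fibroblast markers at 376 CPM. The 10 neuroendocrine markers, 6 of them members, summed to medians of 2.11 to 4.63 CPM, and the nerve markers to 0.273 to 0.665 CPM. Pcsk1, a prohormone convertase, was at 0 counts in 32 of 36 tumours. Of the neuroendocrine markers that are no members, the granin-like chaperone Scg5 was highest, at a mean of 1.05 CPM. The name of the set is thus not borne out as a cell type, and Ddc, Adora1 and Dnm1, which carry nearly all its counts, are described under their own names. In bulk libraries, fewer cells of a type and less RNA per cell cannot be told apart.

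The 6 remaining members lay near 0 in almost every tumour. Of their 216 tumour values, 105 were 0 counts and 9 reached 1 CPM. Chga had 43 counts in all 36 tumours together, was at 0 in 31 of them, and was removed by the filter on low counts, so that 8 of 9 members were tested. Chgb was at 0 in 20 tumours and reached 2.05 CPM in tumour 6 of CE472, a Variant 1 sgNeo tumour. Syp was detected in 31 of 36 tumours, but never above 0.7 CPM. Insm1 was at 0 in 20 tumours with a highest value of 0.716 CPM. Uchl1 was at 0 in 9 tumours, with a median of 0.36 CPM, and 1 tumour stood apart at 7.7 CPM, tumour 1 of CE467 in Variant 1 sgNeo. The exons of Syp and Uchl1 share 875 and 295 bases with Gm14703 and Uchl1os, so reads there may belong to either gene. No difference between groups was called for Chgb, Syp, Insm1 or Uchl1 in any of the 6 comparisons.

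**Figure D1:**
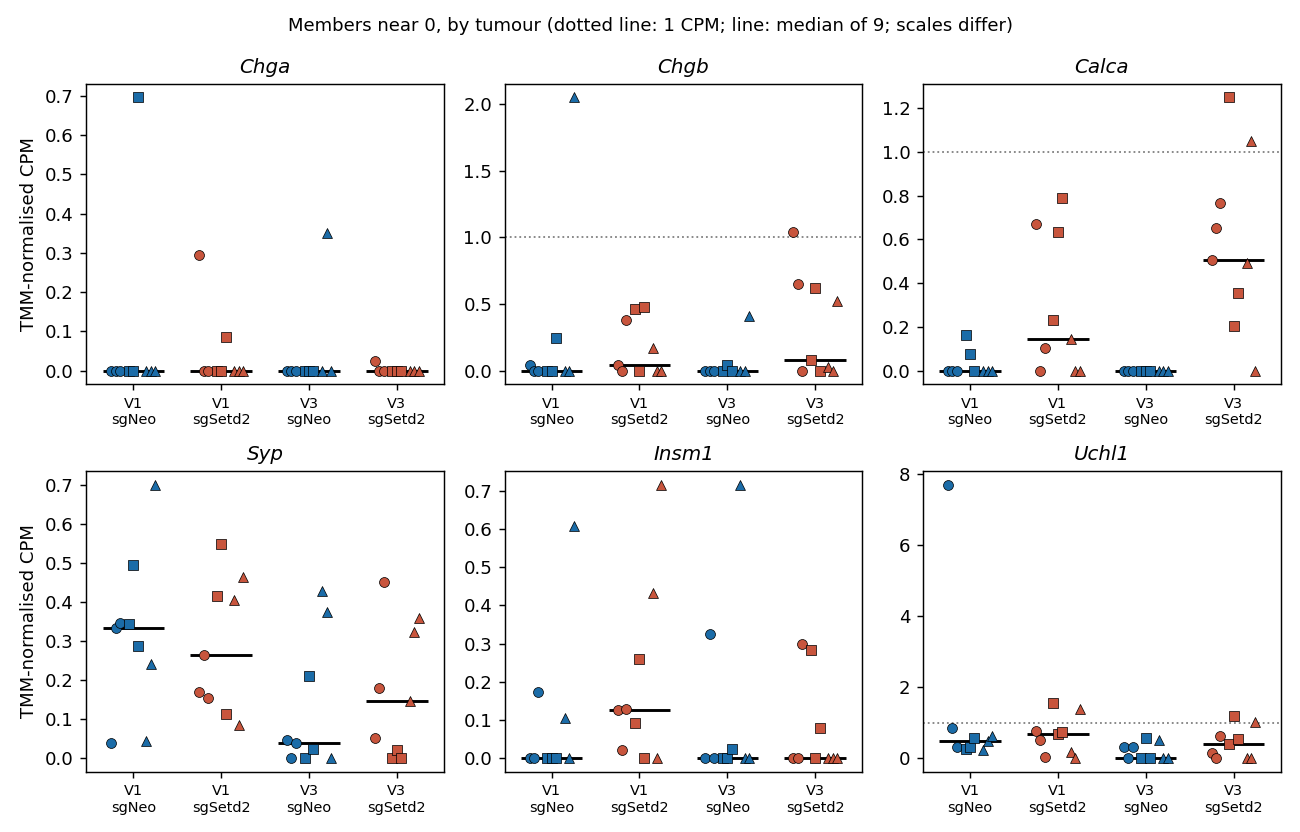
TMM-normalised CPM (vertical axes, each on its own linear scale) of the 6 members near 0 in each of the 36 tumours, by group, with V1 and V3 for Variant 1 and 3. Each point is a tumour, shapes mark the 3 codes of a group, the bar is the median of 9 tumours, and the dotted line marks 1 CPM. Calca is at 0 in all 9 Variant 3 sgNeo tumours and above 0 in 8 of 9 Variant 3 sgSetd2 tumours.

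Calca differed from the other low members in its distribution over groups. No read was counted in the 9 Variant 3 sgNeo tumours, while the 9 Variant 3 sgSetd2 tumours held 336 counts and ranged from 0 through a median of 0.508 to 1.25 CPM. The Variant 3 sgSetd2 codes CE450, CE454 and CE456 stood at 0.668, 0.564 and 0.644 CPM, all above the 3 sgNeo codes at 0. With a floor of 3 counts put in place of 0 for the sgNeo group, the pooled ratio was 99.8-fold. This ratio leaves the spread between tumours and codes aside, so it is no lower bound. In Variant 1 the tumours held 14 counts in sgNeo, all in CE468, and 85 in sgSetd2, where tumours ran from 0 through a median of 0.144 to 0.791 CPM and overlapped those of sgNeo. With edgeR's quasi-likelihood test over all 20009 genes, the Calca difference missed the threshold in Variant 3 (adjusted p = 0.0859) and in Variant 1 (adjusted p = 0.462), and it was called in the average over both variants. In Variant 3 it was called by DESeq2, at a log2 fold change of 9.04 (adjusted p = 0.00059), and by limma on code means, at 3.48 (0.0191). It was also called by limma voom on tumours with code as a random block, at 5.10 (0.000913). Leaving out CE468, a Variant 1 code, gave a call as well (0.0458). The size of the Calca change in Variant 3 thus varied with the method. Since results of these tumours were known when the set was drawn up, the Calca calls and adjusted p-values are a description. The call in the average over both variants was lost without any of 9 codes in turn, with adjusted p from 0.0501 to 0.0665. These codes were CE428, CE429, CE433, CE450, CE454, CE467, CE475, CE479 and CE483. That call in the average was lost without tumour 1 of CE483 as well, with 0.0549. It was also lost with the sex of the code as a covariate (adjusted p = 0.0524), with the cell cycle mean as a covariate (0.202) and without the tumour of each code highest in cell cycle markers (0.0803). Calca levels remain low, at 0 to 117 counts per tumour in Variant 3 sgSetd2 and 0 to 28 in Variant 1 sgSetd2. Of 10 other calcitonin family peptides and receptors, 6 were tested and none was called. Calcb, which encodes another CGRP, was at 0 in 3 of the groups, and the receptor partner Ramp1 averaged 25.1 CPM in Variant 1 sgNeo and 54.9 in Variant 1 sgSetd2, against 18.6 and 23 in Variant 3.

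Among 24 further neuroendocrine genes, 11 passed the filter. In Variant 1, 1 of the 11 rose with sgSetd2 and none fell, in Variant 3 none was called, and in the average 3 rose. Of all genes tested, 1.42% were called in Variant 1, 1.49% in Variant 3 and 7.35% in the average. The lists were chosen with earlier results known, so nothing is read from their counts. Nkx2-2, a homeodomain factor of neural and pancreatic endocrine development, had no counts in 18 sgNeo tumours, while all 9 Variant 1 sgSetd2 tumours had some, from 0.252 to 5.21 CPM with a mean of 2.48 ± 1.31 (SD, n = 3 codes, adjusted p = 0.0487 in Variant 1). In Variant 3 sgSetd2 it averaged 0.0101 CPM. Eno2, the neuronal enolase, rose by 1.79 on the log2 scale in the average (SE 0.47, adjusted p = 0.0402), from 0.648 to 1.86 CPM in Variant 1 and from 0.617 to 2.58 CPM in Variant 3. Cplx2, a complexin of vesicle release, rose by 2.10 (SE 0.46, adjusted p = 0.0203) at levels of 0.0626 to 1.04 CPM. The median change of the 11 genes was 0.64 in Variant 1 and 0.92 in Variant 3, beside -0.0054 and 0.023 over all genes tested. Without the tumour of each code highest in cell cycle markers, none of these calls held, with adjusted p from 0.0678 to 0.328. Most calls over all genes were lost there too, from 284 to 8 in Variant 1 and from 1471 to 282 in the average. In the average, Nkx2-2 went from 7.6 to 7.3 on the log2 scale, Eno2 from 1.79 to 1.34 and Cplx2 from 2.10 to 1.73.

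Ddc lies on chromosome 11 of GRCm38 (chr11:11814101-11898144, minus strand, ENSMUSG00000020182.16), with 4.46 kb of exons. RefSeq gives it 2 start sites in GRCm38.p6, and 300 bases around each are shown because Ddc was called in both variants and the 2 starts differ in their core motifs. Capitals mark a CCAAT box (CCAAT) or a TATA box (TATAAA) on either strand, found in 37.4% and 13.6% of 32851 RefSeq promoters of this length. A cyclic AMP element (TGACGTCA, 1.79%) and a GC box (GGGCGG, 35.7%) were also searched for on both strands, and neither is in these windows. The inner window holds 5 CpG and the outer 2, where the median promoter holds 7. No comparison here tells which start was used.
Ddc inner start, chr11:11890359-11890658, minus strand: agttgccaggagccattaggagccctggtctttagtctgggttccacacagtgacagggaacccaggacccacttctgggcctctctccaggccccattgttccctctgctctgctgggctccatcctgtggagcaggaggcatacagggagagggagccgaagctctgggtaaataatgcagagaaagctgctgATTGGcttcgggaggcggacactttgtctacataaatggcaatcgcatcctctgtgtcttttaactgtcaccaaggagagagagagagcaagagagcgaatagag
Ddc outer start, chr11:11898095-11898394, minus strand: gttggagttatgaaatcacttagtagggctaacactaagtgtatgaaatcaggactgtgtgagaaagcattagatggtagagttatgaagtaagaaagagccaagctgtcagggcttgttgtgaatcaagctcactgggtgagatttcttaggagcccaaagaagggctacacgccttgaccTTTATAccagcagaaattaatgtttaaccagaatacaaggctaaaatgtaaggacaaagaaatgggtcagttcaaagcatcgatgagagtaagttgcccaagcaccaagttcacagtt

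Ddc was low or absent in most tumours and high in a few sgNeo tumours. In Variant 1 sgNeo the tumours ran from 0 through a median of 3 to 37.7 CPM, and in Variant 1 sgSetd2 from 0 through 0.632 to 1.17 CPM. In Variant 3 sgNeo they ran from 0 through 1.33 to 35.7 CPM, and in Variant 3 sgSetd2 from 0 through 0.225 to 1.71 CPM. Tumours thus overlapped at the low end in both variants, while 6 of 9 Variant 1 sgNeo tumours and 4 of 9 Variant 3 sgNeo tumours lay above every sgSetd2 tumour of the same variant. Over the 3 pooled tumours of each code, Variant 1 sgNeo stood at 15.3, 23.3 and 12.9 CPM in CE467, CE468 and CE472. Variant 1 sgSetd2 stood at 0.43, 0.773 and 0.216 CPM in CE475, CE479 and CE483. The Variant 3 codes were at 6.26, 2 and 11.6 CPM in CE428, CE429 and CE433 of sgNeo and at 0.356, 0.549 and 0.505 CPM in CE450, CE454 and CE456 of sgSetd2. By code, the guides did not overlap in either variant.

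With the codes as units, Ddc was lower with sgSetd2 by a log2 fold change of -5.17 (SE 0.68) in Variant 1 and of -3.81 (SE 0.63) in Variant 3. It was among the genes called in both comparisons and in their average, -4.49 (SE 0.46). Since the fall of Ddc was known when the set was drawn up, these calls are a description. The adjusted p-values given for Ddc in other fits show only where a call is lost. The code means rest on single tumours: 3 Variant 1 sgNeo tumours, 1 from each code, exceeded 10 CPM, at 28.1 in tumour 1 of CE467, 37.7 in tumour 1 of CE468 and 30.4 in tumour 2 of CE472. In Variant 3 sgNeo the tumours above 10 CPM were tumour 2 of CE428 at 15.7 and tumours 1 and 2 of CE433 at 35.7 and 12.4. Between the variants, Ddc in Variant 3 sgNeo stood -1.38 from Variant 1 sgNeo on the log2 scale (SE 0.57, adjusted p = 0.436), which was not called, and the guides' difference between variants was 1.37 (SE 0.81, adjusted p = 0.855). In sgSetd2 the variants stood at 0.473 ± 0.281 and 0.47 ± 0.101 CPM (SD, n = 3 codes).

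**Figure D2:**
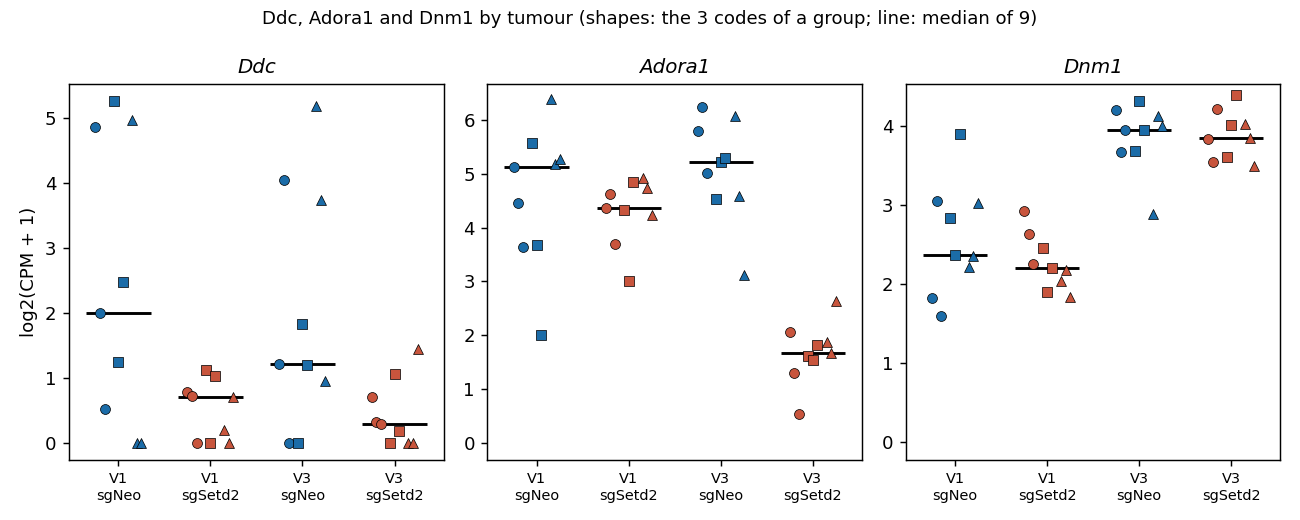
log2(CPM + 1) of Ddc, Adora1 and Dnm1 (vertical axes) in the 36 tumours, by group. Each point is a tumour, shapes mark the 3 codes of a group and the bar is the median of 9 tumours. Ddc is high in a few sgNeo tumours, Adora1 is low in all 9 Variant 3 sgSetd2 tumours, and Dnm1 has higher medians in Variant 3 than in Variant 1 with either guide.

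The 6 tumours with Ddc above 10 CPM were also the 6 highest of 18 sgNeo tumours in the mean log2(CPM + 1) of 10 cell cycle markers, at 4.5 to 5.54. Of these 6 tumours, 5 were also the highest of the 18 in the sum of 4 platelet markers, at 203 to 1420 CPM, while tumour 2 of CE433 was at 39.3 and the 12 others at 27.9 to 127 CPM. The sums ran from 17.2 to 102 CPM in Variant 1 sgSetd2 and from 8.86 to 29.2 in Variant 3 sgSetd2, and the part of these markers in the Ddc result was not tested. Across the 18 sgNeo tumours of 6 codes, Ddc and the cell cycle mean ran together, with a Spearman correlation of 0.88 and a Pearson correlation of 0.92 on the log2 scale, given without a p since tumours of a code are not independent. Across the 18 sgSetd2 tumours the Spearman correlation was -0.10. In Variant 3 sgSetd2, Ddc stayed at 1.71 CPM or less. Only tumour 1 of CE450 in that group had a cell cycle mean inside the range of the 6 high sgNeo tumours. Its mean was 4.93, with Ddc at 0.636 CPM. The next highest mean of the group was 4.45, in tumour 6 of CE456, where Ddc was at 0. The comparison of guides at this cell cycle level thus rests on a single sgSetd2 tumour and decides nothing. In Variant 1 sgSetd2 the cell cycle mean reached only 3.45, below those 6 tumours, so guide and cell cycle level cannot be told apart there at the high end. The tumour of each code highest in cell cycle markers was then left out. This took away every tumour with Ddc above 10 CPM except tumour 2 of CE433. A smaller Ddc difference was thus built in, so this setting decides nothing about Ddc. The difference was -1.41 in Variant 1 (adjusted p = 0.811) and -2.84 in Variant 3 (adjusted p = 0.533). Over all genes, calls fell from 284 to 8 in Variant 1 and from 299 to 102 in Variant 3. With the cell cycle mean as a covariate the Ddc difference was -4.23 in Variant 1 (adjusted p = 0.488), while in Variant 3 it stayed called.

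**Figure D3:**
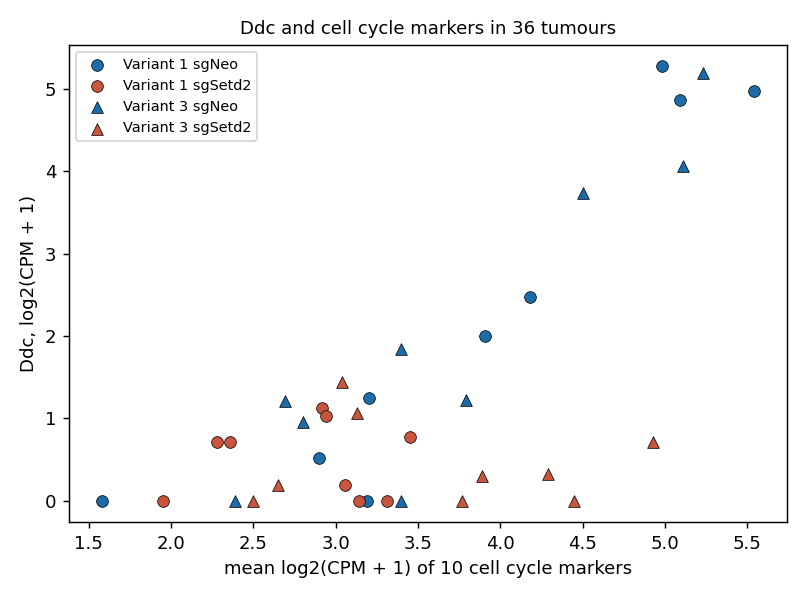
Ddc as log2(CPM + 1) (vertical axis) against the mean log2(CPM + 1) of 10 cell cycle markers (horizontal axis), 1 point per tumour, 36 tumours in 4 groups. The 6 highest Ddc values are sgNeo tumours with cell cycle means of 4.5 to 5.54. The only sgSetd2 tumour in that range is tumour 1 of CE450 in Variant 3, at 4.93, with Ddc at 0.636 CPM.

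The call for Ddc also depended on single codes and tumours. In Variant 1 it was lost without CE475 (-5.11), CE483 (-4.83), tumour 1 of CE467 (-4.73), tumour 1 of CE468 (-4.45), tumour 2 of CE472 (-4.76) or tumour 10 of CE456 (-5.17), with adjusted p from 0.0501 to 0.253. In Variant 3 it was lost without CE428 (-3.84), CE433 (-3.13), CE450 (-3.64), CE456 (-3.86), tumour 2 of CE428 (-3.35), tumour 10 of CE456 (-4.44), tumour 1 of CE467 (-3.81) or tumour 2 of CE472 (-3.81), with adjusted p from 0.0511 to 0.283. Tumour 10 of CE456 lies outside the Variant 1 comparison, and tumour 1 of CE467 and tumour 2 of CE472 lie outside that of Variant 3. Without them the differences stayed at -5.17 and -3.81, so these losses do not show that Ddc depended on those tumours there. The Ddc call was lost in both variants by limma on code means, at -2.93 (adjusted p = 0.237) and -2.80 (adjusted p = 0.212). It was also lost in both by limma voom, at -3.46 (adjusted p = 0.462) and -3.82 (adjusted p = 0.342). In Variant 3 it was lost with only the groups compared (-3.81, adjusted p = 0.0545). The direction was downward in every one of these fits. In the average the Ddc call was lost by voom (adjusted p = 0.123), with the cell cycle covariate (0.0568) and without the high cell cycle tumours (0.387).

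Most other genes of amine metabolism were not called. Of 25 genes of aromatic amine synthesis, storage, uptake and breakdown, 17 were tested. In Variant 1, 2 rose with sgSetd2 and none fell, in Variant 3 none was called, and in the average 4 rose and 1 fell. The shares called over all genes were 1.42%, 1.49% and 7.35% in that order. Tyrosine hydroxylase (Th), which makes the L-DOPA that Ddc uses, had no counts in any tumour, and tryptophan hydroxylase Tph1 reached 1.41 CPM in 1 Variant 1 sgSetd2 tumour and had a median of 0 in all 4 groups. Gch1, the first enzyme of tetrahydrobiopterin synthesis, rose from 63.1 to 130 CPM in Variant 1 (log2 fold change 1.04, SE 0.17, adjusted p = 0.0195) and stood at 85.3 and 142 CPM in Variant 3. Hnmt, which methylates histamine, rose from 62.2 to 143 CPM in Variant 1 (1.20, SE 0.25, adjusted p = 0.0449). In the average, Maoa, which oxidises serotonin and noradrenaline, rose by 0.65 (SE 0.17, adjusted p = 0.0406). Spr, the last enzyme of tetrahydrobiopterin synthesis, fell by 0.56 (adjusted p = 0.0199). The vesicular amine transporters Slc18a1 and Slc18a2 averaged 3.81 to 6.99 and 4.68 to 6.05 CPM in the 4 groups, and neither was called. The median change of the list was 0.40 in Variant 1 and -0.14 in Variant 3. Without the tumour of each code highest in cell cycle markers, Gch1 in Variant 1 stood at 0.51 (adjusted p = 0.441), Hnmt in Variant 1 at 0.73 (adjusted p = 0.545) and Spr in the average at -0.27 (adjusted p = 0.259), and none of these amine genes was called. Maoa in the average was then at 0.67, beside 0.65 with all tumours. Calls over all genes fell there to 8 in Variant 1 and 282 in the average.

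Adora1 lies at chr1:134199223-134235431 on the minus strand of GRCm38 (ENSMUSG00000042429.8), with 5.78 kb of exons, and was the most abundant member per length, at a mean of 4.3 CPM per kb over the 12 codes, against 1.84 for Dnm1 and 1.39 for Ddc. Its outer RefSeq promoter is shown because it is the contrast to those of Ddc in base composition. It is rich in CpG, with 26, and capitals mark 3 GC boxes that adjoin without sharing a base, on the opposite strand. Its inner promoter, not shown, holds 24 CpG.
Adora1 outer start, chr1:134235408-134235707, minus strand: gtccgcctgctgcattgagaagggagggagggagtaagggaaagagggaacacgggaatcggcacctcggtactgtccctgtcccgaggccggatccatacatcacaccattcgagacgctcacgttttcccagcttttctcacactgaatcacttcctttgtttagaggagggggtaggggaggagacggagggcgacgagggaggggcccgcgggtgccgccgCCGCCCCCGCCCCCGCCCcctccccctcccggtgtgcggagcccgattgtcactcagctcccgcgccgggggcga

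Adora1 was low in Variant 3 sgSetd2 and moderate elsewhere. Tumours ran from 2.99 through a median of 34 to 82.7 CPM in Variant 1 sgNeo, from 7 through 19.7 to 29.5 in Variant 1 sgSetd2 and from 7.74 through 36.5 to 74.8 in Variant 3 sgNeo. In Variant 3 sgSetd2 they ran from 0.45 through 2.18 to 5.24 CPM, so that all 9 tumours lay below every tumour of Variant 3 sgNeo and of Variant 1 sgSetd2. The code values of Variant 3 sgSetd2 were 1.58, 2.16 and 3.15 CPM in CE450, CE454 and CE456, and those of Variant 3 sgNeo were 56.7, 35.3 and 24.7 in CE428, CE429 and CE433. In Variant 1 the sgNeo codes CE467, CE468 and CE472 stood at 25.4, 30.6 and 56.7 CPM and the sgSetd2 codes CE475, CE479 and CE483 at 18.9, 18 and 25.6, which overlap. The 2 sgNeo groups, at 37.6 ± 16.8 and 38.9 ± 16.3 CPM (SD, n = 3 codes), did not differ beyond their spread, and Variant 1 sgSetd2, at 20.8 ± 4.15, comes next in order above Variant 3 sgSetd2 at 2.3 ± 0.793.

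In Variant 3, Adora1 was lower with sgSetd2 by a log2 fold change of -4.08 (SE 0.42), and was among the called genes whichever code or tumour was left out (48 fits), at -4.37 to -3.70, and under all 9 other settings, at -4.26 to -3.83. Results of these tumours were known when the set was drawn up, and all these fits reuse them. The calls and adjusted p-values of Adora1 are therefore a description and no independent support. In Variant 1 the difference of -0.85 (SE 0.37, adjusted p = 0.285) was not called, and without the tumour of each code highest in cell cycle markers it was 0.054. The difference between the guides' effects in the 2 variants was -3.23 on the log2 scale (SE 0.53), with an adjusted p of 0.385 by edgeR and 3.06e-06 by DESeq2, so the variants are not shown to differ by the test chosen here. Within sgSetd2, Variant 3 was lower than Variant 1 by a log2 fold change of -3.18 (SE 0.40), which was called. That call was lost without CE450 (-2.97), CE456 (-3.47), CE483 (-3.00) or tumour 1 of CE468 (-3.18), with adjusted p from 0.0531 to 0.114. CE468 is an sgNeo code outside this comparison. The call was also lost with the cell cycle mean as a covariate (-3.17, adjusted p = 0.19). Leaving out the tumour of each code highest in cell cycle markers lost it as well (-3.32, adjusted p = 0.11). Cell cycle markers ran with Adora1 at a Spearman correlation of 0.47 over 18 sgNeo tumours and -0.48 over 18 sgSetd2 tumours.

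Adora1 shares 1162 exon bases with Mybph on the other strand, and the libraries do not mark strand. Mybph itself was at 0 to 2.62 CPM in the other groups and 0.348 to 5.55 CPM in Variant 3 sgSetd2, with its highest value in tumour 10 of CE456, where Adora1 was highest in that group. The part of shared reads in the low Adora1 values of Variant 3 sgSetd2 was not tested. Chil1, a chitinase-like secreted protein whose gene ends 9.04 kb away, moved the other way, from 6270 to 13000 CPM in Variant 1 (log2 fold change 1.05, SE 0.19, adjusted p = 0.0262) and from 8380 to 18900 CPM in Variant 3 (1.17, SE 0.19, adjusted p = 0.0135).

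All 12 of the other adenosine receptor and metabolism genes were tested, and only Adora2b was called, upward in both variants. Over all genes, 1.42% were called in Variant 1 and 1.49% in Variant 3. Adora2b, a receptor that raises cyclic AMP, rose from 70.8 ± 8.5 to 137 ± 25 CPM in Variant 1 (SD, n = 3 codes, log2 fold change 0.96, SE 0.17, adjusted p = 0.0245) and from 35.2 ± 6.65 to 80 ± 6.33 in Variant 3 (1.18, SE 0.17, adjusted p = 0.00936). Without the tumour of each code highest in cell cycle markers the Adora2b difference was 0.44 in Variant 1 (adjusted p = 0.613) and 0.67 in Variant 3 (adjusted p = 0.306), and with the cell cycle mean as a covariate it stayed called in Variant 3 only. With those tumours left out, calls over all genes fell to 8 in Variant 1 and 102 in Variant 3. Adora2a lay at or near 0 and Adora3 averaged 2.48 to 5.04 CPM. Nt5e, the ectonucleotidase that makes adenosine from AMP, averaged 77.9 and 125 CPM in Variant 1 and 150 and 182 CPM in Variant 3, without a call.

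Dnm1 lies at chr2:32308471-32353338 on the minus strand of GRCm38 (ENSMUSG00000026825.17), with 5.25 kb of exons. Its promoter is shown because the Dnm1 codes of the variants did not overlap with either guide, while those of the guides overlapped within each variant. It holds 28 CpG and 1 GC box, in capitals.
Dnm1 start, chr2:32353280-32353579, minus strand: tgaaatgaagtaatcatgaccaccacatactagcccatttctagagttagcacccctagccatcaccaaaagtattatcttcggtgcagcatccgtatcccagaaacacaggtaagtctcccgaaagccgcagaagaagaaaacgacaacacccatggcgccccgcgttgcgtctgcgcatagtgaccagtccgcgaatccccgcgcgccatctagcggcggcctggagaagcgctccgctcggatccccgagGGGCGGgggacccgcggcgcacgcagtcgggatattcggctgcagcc

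Dnm1 was detected in all 36 tumours, with a median of 8.77 CPM. Tumours ran from 2.03 through a median of 4.15 to 13.9 CPM in Variant 1 sgNeo and from 2.57 through 3.59 to 6.59 in Variant 1 sgSetd2. They ran from 6.38 through 14.5 to 18.9 CPM in Variant 3 sgNeo and from 10.2 through 13.4 to 20 in Variant 3 sgSetd2. With sgSetd2 the variants did not overlap in any tumour, and with sgNeo 6 of 9 Variant 3 tumours lay above every Variant 1 tumour. By code, Variant 1 sgNeo stood at 3.58, 7.22 and 5.38 CPM and Variant 3 sgNeo at 14.6, 17.2 and 13.4, while Variant 1 sgSetd2 stood at 5.06, 3.65 and 3.19 and Variant 3 sgSetd2 at 14.3, 15.5 and 12.7. Codes of the variants did not overlap with either guide.

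On the log2 scale, Dnm1 in Variant 3 against Variant 1 was higher by 1.84 (SE 0.27) with sgSetd2, which was called, and 1.48 (SE 0.27, adjusted p = 0.165 by edgeR) with sgNeo, which was not. In sgNeo it was called by DESeq2 (adjusted p = 3.46e-05) and by limma voom on tumours with code as a random block (adjusted p = 0.00494). The Dnm1 calls and adjusted p-values are a description too, since results of these tumours were known when the set was drawn up. The sgSetd2 call was lost without CE428 (1.84), CE450 (1.84), CE454 (1.77), CE456 (1.92), CE479 (1.78) or CE483 (1.71), and without tumour 1 of CE468 (1.84), tumour 2 of CE429 (1.84), tumour 2 of CE467 (1.84), tumour 3 of CE433 (1.84) or tumour 3 of CE475 (1.76), with adjusted p from 0.0515 to 0.159. CE428, CE429, CE433, CE467 and CE468 are sgNeo codes outside this comparison. The sgSetd2 call was also lost with the cell cycle mean as a covariate (1.92, adjusted p = 0.19) and with only the groups compared (1.83, 0.0941). Leaving out the tumour of each code highest in cell cycle markers lost it as well (1.82, 0.0511). The guides did not change Dnm1 detectably, with -0.44 (SE 0.27, adjusted p = 0.46) in Variant 1 and -0.09 (SE 0.26, adjusted p = 0.928) in Variant 3. The difference of these was 0.36 (SE 0.37, adjusted p = 0.947). Dnm1 and Adora1 did not run together over the 36 tumours, with a Spearman correlation of -0.24.

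Of 24 other genes of dynamins and synaptic vesicle recycling, 23 were tested. With sgSetd2, 2 fell in Variant 1, 1 fell in Variant 3, and 4 fell and 1 rose in the average. The shares called over all genes were 1.42%, 1.49% and 7.35% in that order. Syngr1, a synaptogyrin of vesicle membranes, fell by 1.07 in Variant 1 (SE 0.19, adjusted p = 0.0245), from 30 to 14.2 CPM, and by 1.02 in Variant 3 (SE 0.19, adjusted p = 0.0259), from 34.5 to 17 CPM. Bin1, amphiphysin 2, which bends membranes at endocytic sites, fell by 1.79 in Variant 1 (SE 0.29, adjusted p = 0.0184), from 30.2 to 8.73 CPM, and stood at 24.2 and 15.6 CPM in Variant 3. In the average, the release protein Stx1a fell by 2.11 (SE 0.42, adjusted p = 0.0126), dynamin 3 (Dnm3) fell by 1.20 (SE 0.29, adjusted p = 0.031), and the clathrin light chain Cltb rose by 0.32 (SE 0.08, adjusted p = 0.0291). Without the tumour of each code highest in cell cycle markers, Syngr1 in the average stayed called at -0.82 (adjusted p = 0.0365), while Bin1 in Variant 1 was at -1.04 (adjusted p = 0.25) and the other calls of this list were lost. In the average, Stx1a was then at -2.39, Dnm3 at -1.40 and Cltb at 0.25. Calls over all genes fell there to 8 in Variant 1, 102 in Variant 3 and 282 in the average. Dnm2, the dynamin of most cells, averaged 126 to 144 CPM in the 4 groups without a call. None of the 23 was called between the variants with either guide, where 0.005% of all genes were called in sgNeo and 0.13% in sgSetd2. Of 7 ubiquitin hydrolase and ubiquitin genes set beside Uchl1, all tested, Rps27a fell in the average (-0.43, SE 0.11, adjusted p = 0.0432), where 7.35% of all genes were called. Of 9 partner and relative genes of Insm1, all tested, none was called.

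**Figure D4:**
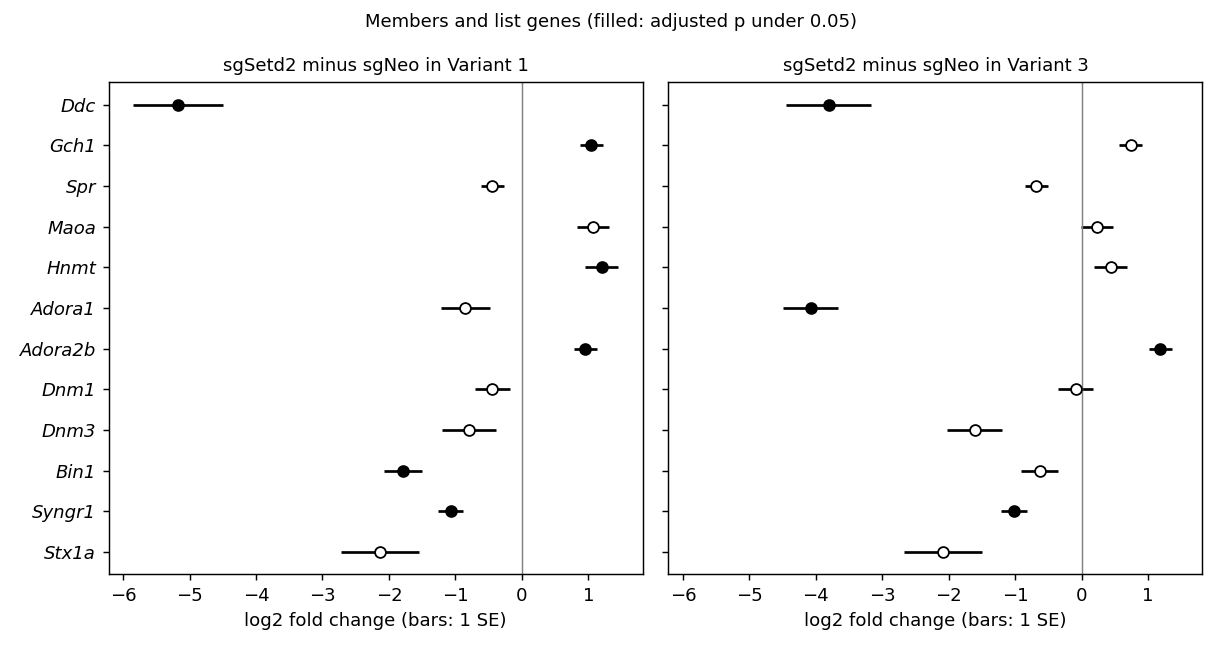
log2 fold change of sgSetd2 against sgNeo (horizontal axes, bars 1 SE) in Variant 1 (left) and Variant 3 (right) for Ddc, Adora1, Dnm1 and genes of their lists. Filled points have an adjusted p under 0.05. Ddc and Adora1 lie on the negative side in Variant 3, while Gch1 and Adora2b lie on the positive side in both variants.

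Counted over the tested members, 1 of 8 was called between the guides in Variant 1, Ddc, where 1.42% of all 20009 genes tested were called, and 2 of 8 in Variant 3, Ddc and Adora1, where the share was 1.49%. In the average, 3 of 8 were called, Ddc and Adora1 downward and Calca upward, against 7.35% of all genes. Between the variants, none was called in sgNeo, where 0.005% of genes were, and 2 in sgSetd2, Dnm1 upward and Adora1 downward, where 0.13% were. In the interaction of variant and guide no gene was called by edgeR, 0% of those tested, while 1200 had an unadjusted p under 0.05, Adora1 among them, and DESeq2 called 116 genes. Codes of the guides did not overlap for 1 member in Variant 1, with 24% of all genes, and for 3 in Variant 3, with 19%. Codes of the variants did not overlap for 2 members in sgNeo, with 15% of all genes, and for 3 in sgSetd2, with 16.7%. Because the members were chosen with these comparisons known, nothing is read from these counts. The guide comparisons in Variant 1 and Variant 3 share no tumours, while the others reuse them.

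The genes most like each expressed member were ranked by Spearman correlation over the 36 tumours among 11065 candidates with a median of at least 1 CPM. For Adora1 these were Ak1, an adenylate kinase, at 0.89, and St3gal6 and Fam178b, both at 0.82. Ak1 averaged 134 and 31.1 CPM in Variant 1 sgNeo and sgSetd2 and 110 and 9.81 CPM in Variant 3. For Dnm1 they included Cystm1 at 0.79 and Nradd at 0.78, and Cystm1 averaged 301, 309, 397 and 435 CPM in Variant 1 sgNeo, Variant 1 sgSetd2, Variant 3 sgNeo and Variant 3 sgSetd2. Ddc, whose median is under 1 CPM, was added to this search after its values were seen, and gave Clic6 at 0.78, Gata6 at 0.77 and Akr1e1 at 0.76. Fignl1, which lies 5.14 kb from Ddc, fell in Variant 1 (-2.23, SE 0.44, adjusted p = 0.0351), from 14.1 to 3 CPM, and was not called in Variant 3 (-1.15, SE 0.43, adjusted p = 0.233). Grb10, 32.4 kb away on the other side, was not called in either variant. Points in these correlations share codes and groups, and nothing follows from them about shared control.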

How the data were processed

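RNA was isolated from the sorted cells with a PicoPure kit, and SMART-Seq libraries were sequenced as read pairs, per the labels' protocols. The authors deposited raw read counts per gene and tumour. The submitters' processing notes list STAR 2.5.3a, R 4.2 and DESeq2 1.38.3 without their roles. How reads were counted, with which strand setting, build and annotation, is not given in the sources used here. Symbols and coordinates came from GENCODE M21 (GRCm38) by gene ID without its version, with 49326 of 49585 IDs matched. Promoters are RefSeq's (GRCm38.p6).

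The 3 tumours of each code were summed, giving 12 units of 91479340 to 212097748 counts. edgeR 4.0.16 in R 4.3.3 (filterByExpr, TMM, robust glmQLFit and glmQLFTest) tested 20009 genes in 6 contrasts, with Benjamini-Hochberg adjusted p under 0.05 called. SE is the absolute log2 fold change over the square root of F. The code was tested on simulated data. Alternatives used DESeq2 1.42.0 and limma 3.58.1, other scaling, no filter, other sample sets, covariates and leaving out codes or tumours. The sample labels used here give no sex. Codes taken as male numbered 0 and 1 of 3 in Variant 1 sgNeo and sgSetd2, and 2 and 1 of 3 in Variant 3. Sex was thus unbalanced between groups, most of all between the variants in sgNeo. If tumours of separate codes are not separate animals, p-values measure only the spread between these samples. No batch or date is labelled.

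Members, lists and tests were chosen with earlier results of these data known. Named genes are all members, up to 4 called genes of each list by smallest p, and the 3 most correlated genes of members with a median of at least 1 CPM. Some genes under this rule are not reported here. Maoa, Dnm3, Th, Tph1, Slc18a1, Slc18a2, Dnm2, Adora2a, Adora3, Nt5e, Calcb, Ramp1, Scg5 and the neighbouring genes were added after their values were seen.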

Additional observations from a re-analysis of the deposited data

Results flagged for a closer look

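Of the 36 sets of 9 tumours formed by the 9 members and 4 groups, 10 held a tumour far from the other 8 on the log2(CPM + 1) scale, by Dixon's 95% limit. Chance gives about 1 such set in 20, and 9 of the 10 belong to members near 0, where 1 tumour with reads is enough.

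Chga was at 0.696 CPM in tumour 4 of CE468 and at 0 in the other Variant 1 sgNeo tumours, at 0.294 in tumour 1 of CE475 with 0.0848 next in Variant 1 sgSetd2, at 0.35 in tumour 2 of CE433 in Variant 3 sgNeo, and at 0.0254 in tumour 1 of CE450 in Variant 3 sgSetd2. Chgb was at 2.05 CPM in tumour 6 of CE472, where the next Variant 1 sgNeo tumour was at 0.246, and at 0.407 CPM in tumour 3 of CE433, where the next Variant 3 sgNeo tumour was at 0.042. Insm1 was also highest among Variant 1 sgNeo tumours in tumour 6 of CE472, at 0.607 CPM, with 0.173 next. Calca was at 0.165 CPM in tumour 1 of CE468, with 0.0761 next in Variant 1 sgNeo. Uchl1 was at 7.7 CPM in tumour 1 of CE467, a Variant 1 sgNeo tumour that was also high in Ddc, with 0.835 next. That tumour also stood apart in alveolar type 2 and fibroblast markers. The other tumours with Ddc above 10 CPM had Uchl1 at 0 to 0.515 CPM. Dnm1 was low in tumour 1 of CE433, at 6.38 CPM, where the next lowest Variant 3 sgNeo tumour was at 11.7. That tumour held the highest Ddc of its group.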

How the results depend on the processing

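The count of members called changed under some alternatives. In the interaction it was 1 by DESeq2. In Variant 1 it was 0 with limma on the code means of log2-CPM, with limma voom on tumours, with the cell cycle mean as a covariate and without the tumour of each code highest in cell cycle markers, the last pair added after seeing the data. In Variant 3 it was 1 with only the groups compared and without those tumours, 3 by DESeq2 with Calca added, and 2 by limma on code means and by voom, as Calca and Adora1 in place of Ddc and Adora1. In the average it was 1 with the cell cycle covariate, 0 without those tumours, 2 by voom without Ddc, and 2 with the sex covariate, also added later, without Calca. Between the variants it was 1 in sgNeo by DESeq2 and by voom, and in sgSetd2 it was 0 with the covariate, 0 without those tumours and 1 with only the groups compared. Leaving out 1 code or tumour gave 0 to 1 in Variant 1, 1 to 3 in Variant 3, 2 to 3 in the average, 0 to 2 between variants in sgSetd2, and 0 to 0 both in sgNeo and in the interaction. The cause was not tested.

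Values that turned in sign were uncalled in the main comparison and under the alternative. They include 65 of 1698 fits of Chgb, Calca, Syp, Insm1 and Uchl1. Adora1 in Variant 1 was 0.054 without the high cell cycle tumours. Ddc between variants in sgNeo was 0.50, and its interaction -1.43, in the same setting, and the interaction was -0.36 by voom. Dnm1 in Variant 3 was 0.039 by limma on code means. Leaving out 1 code or tumour gave -0.33 to 0.47 for Adora1 between variants in sgNeo, -0.64 to 0.53 for Ddc between variants in sgSetd2, and -0.17 to 0.031 for Dnm1 in Variant 3. Of the list genes, Syngr1, Gch1 and Bin1 were called in the average in all 48 such fits, but calls within a variant were often lost without 1 code. Of 12 such fits, Syngr1 was called in 7 in each variant, Gch1 and Adora2b in Variant 1 in 7, Bin1 in Variant 1 in 9, and Hnmt and Nkx2-2 in Variant 1 in 3. In the average, Eno2, Dnm3 and Cltb were called in 3 of 12, and Maoa and Rps27a in 2. Of 23 calls of list genes, 3 held with the cell cycle covariate and 1 without the high cell cycle tumours. The 284 genes called in Variant 1 became 1500 by DESeq2, 8 without the high cell cycle tumours, 1 with the cell cycle covariate, 19 without CE475 and 16 without CE483. The 299 in Variant 3 became 1337 by DESeq2, 102 without those tumours and 237 with the covariate. The 1471 in the average became 282 without those tumours and 105 with the covariate.

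No paired analysis was possible because tumour numbers in the titles do not pair tumours across groups. Depth limits the 6 members near 0, where differences of a few reads are not detectable.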
